A study of Mus musculus with 6 samples.

Results

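The chromatin described here lies at 46 mouse genes for proteins that hold neurons together, guide their axons or build their synapses: cell-adhesion molecules, guidance receptors and scaffolds that are best known from the brain but were measured here in kidney progenitor cells. The genes were chosen from the readout itself, on the ground that the largest losses of accessibility between E14.5 and P0 lay near such genes. Most of the very largest losses nevertheless lie outside the windows used here, as given near the end. Because of this choice, all differences between the stages at these genes are given as a description, with no test of the gene set. A region belonged to a gene when its midpoint lay in the gene body or within 100 kb of it. Of 43523 distinct accessible regions in the series, 762 met this rule. They were 650 distal regions (not listed as a promoter), 62 promoter regions matched to the 46 genes and 50 other promoter regions inside the windows. Some of the 50 lie at the edge of a member gene body and may belong to that gene. Midpoints were 0.16 kb from the lowest-coordinate base of Dlg2 and -0.044 kb from that of Cntnap5a. Distal regions were found at 43 of the 46 genes, and Nrxn2, Nlgn2 and Slitrk1 had none. A region listed as a promoter was matched by name, or by overlap with a RefSeq start window, for 40 of the 46.

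Accessibility was measured by ATAC-seq, in which the transposase Tn5 cuts and tags exposed DNA, and more reads from a region mean a more open one. The cells were nephron progenitors, the stem-like cells at the rim of the developing kidney that give rise to nephrons, taken from CD1 mice, an outbred stock, in mid-gestation (E14.5) or on the day of birth (P0). Each stage had 3 libraries, and the kidneys of 1 litter were pooled for each, and the labels list no treatment or altered gene in either group. Cells were enriched with magnetic beads carrying antibodies against Itga8, an integrin on their surface, so other cell types may remain, and a region open in more cells cannot be told apart from one more open in each cell. P-values therefore measure the spread between litters.

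Counts in regions ran from 6492996 (P0 replicate 2) to 12292629 (P0 replicate 3) per library, and are given below as CPM, counts scaled to a common library size. The label was checked against regions within 10 kb of marker genes. Of 10 nephron progenitor genes, 9 had a region (Meox1 had none), and their summed level was 425 to 430 CPM at E14.5 and 364 to 443 CPM at P0. Around Six2, which keeps these cells undifferentiated, it was 45.1 to 55.9 CPM at E14.5 and 42.7 to 61.6 CPM at P0. Of their 22 regions 2 were lower at P0, at Itga8 and Eya1. Around Itga8, the antigen used for the beads, the sum was 82.8 to 96.7 CPM at E14.5 and 67.9 to 77.9 CPM at P0, and around Eya1, a partner of Six2, 43.1 to 47.9 and 31.5 to 40.2 CPM, neither overlapping. Around Crym, a crystallin-family protein, it was 38.3 to 42.0 and 29.8 to 37.6 CPM, also without overlap but with no region past the threshold. Around Gdnf, the growth factor that draws in the ureteric bud, the sum lay the other way, 40.2 to 46.7 CPM at E14.5 and 52.8 to 53.8 CPM at P0, with no region past the threshold. Of 9 genes of differentiating nephrons 5 had a region, with 398 to 407 CPM at E14.5 and 407 to 539 CPM at P0. One of these regions rose, at Pax8, a factor of nephron epithelium, where the sum was 70.9 to 78.6 CPM at E14.5 and 100.3 to 104.3 CPM at P0. At Lhx1, an early nephron factor, it was 19.8 to 25.4 and 10.4 to 18.6 CPM, and at Cdh6, a cadherin of the early tubule, 110.3 to 117.6 and 120.6 to 164.8 CPM, both without overlap and with no region past the threshold. Of 13 genes that mark neurons and glia, 10 had a region, with 719 to 795 CPM at E14.5 and 724 to 788 CPM at P0 over 36 regions, of which 0 differed between the stages. Tubb3 and Rbfox3 were among those without a region, and Elavl3, an RNA-binding protein of neurons, had 0.525 to 4.84 CPM. Marker lists of stroma (231 to 242 CPM at E14.5, 212 to 258 at P0), endothelium (218 to 233 and 207 to 237), ureteric bud (220 to 243 and 209 to 225) and blood (158 to 183 and 142 to 171) also overlapped between the stages. Among these 4 lists 1 region passed, higher at P0 at the endothelial cadherin Cdh5, where the sum was 16.5 to 20.9 CPM at E14.5 and 22.8 to 29.1 CPM at P0. For comparison, stages did not overlap at 24.2% of all single regions and at 21.5% of all genes' summed distal counts. Of all regions 4.73% passed the threshold. The part of the marker shifts in the results below was not tested. An open region beside a gene is no measure of its expression.

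Synapses form where adhesion proteins on the axon, such as neurexins and receptor phosphatases, bind partners on the receiving cell, such as neuroligins and leucine-rich repeat proteins. Contactins, IgLON proteins and teneurins join neurites to one another and to glia, while Dcc, Unc5 and Eph receptors read guidance cues. Many of these genes are among the longest in the genome, with most of their DNA in introns. The 46 genes spanned from 4.252 kb (Slitrk1) to 2270.5 kb (Ptprd), with a median of 640.07 kb, and 542 of the 650 distal regions lay inside a gene body.

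Promoter DNA of 6 of the genes, taken from RefSeq (GRCm38.p6, the mm10 assembly), is shown to display the range of sequence at which these genes start. Each line gives the 150 bases just upstream of an annotated start, 5′ to 3′ on the gene's strand, with CG dinucleotides in capitals. The 6 were chosen after their values were seen.
Epha7, chr4:28812981-28813130, plus strand, 14 CG, the most open promoter of the 46 genes: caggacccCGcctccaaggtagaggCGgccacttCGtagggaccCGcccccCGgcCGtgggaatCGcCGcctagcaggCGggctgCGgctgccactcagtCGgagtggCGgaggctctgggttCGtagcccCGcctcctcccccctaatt
Nrxn3, chr12:89812333-89812482, plus strand, 6 CG, a start inside the gene: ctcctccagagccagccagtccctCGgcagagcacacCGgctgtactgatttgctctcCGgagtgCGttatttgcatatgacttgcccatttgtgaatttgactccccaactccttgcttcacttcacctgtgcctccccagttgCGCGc
Brinp1, chr4:68954398-68954547, minus strand, 9 CG, the promoter with the lowest fold change: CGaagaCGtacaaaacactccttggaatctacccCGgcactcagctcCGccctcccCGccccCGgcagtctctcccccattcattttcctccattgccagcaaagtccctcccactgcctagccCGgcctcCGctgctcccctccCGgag
Lrrtm4, chr6:80018727-80018876, plus strand, 2 CG, open with few CG: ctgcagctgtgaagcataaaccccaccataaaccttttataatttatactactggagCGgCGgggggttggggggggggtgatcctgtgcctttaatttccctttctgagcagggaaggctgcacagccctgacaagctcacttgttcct
Ptprt, chr2:162661148-162661297, minus strand, 28 CG, with no region over it: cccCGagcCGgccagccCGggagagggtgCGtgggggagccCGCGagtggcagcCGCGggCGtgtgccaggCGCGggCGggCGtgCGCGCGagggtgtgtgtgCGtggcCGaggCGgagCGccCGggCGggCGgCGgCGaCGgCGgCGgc
Cntn3, chr6:102464668-102464817, minus strand, 0 CG, a start inside the gene with no region over it: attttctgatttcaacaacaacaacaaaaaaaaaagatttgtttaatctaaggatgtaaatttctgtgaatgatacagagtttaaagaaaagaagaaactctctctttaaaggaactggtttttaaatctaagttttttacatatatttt

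RefSeq held 52 such start windows, each of 250 upstream bases, for 34 of the 46 genes. An accessible region overlapped 37 of the 52 (71.2%), against 41.6% of 32851 windows of all genes. The overlapped windows of the member genes had a median of 11 CG dinucleotides and the other 15 had a median of 3. Over all genes these medians were 16 and 3, so open starts of the member genes held fewer CG than open starts in general. The GC box (GGGCGG on either strand) was found in 27.0% of the overlapped member windows and in 59.3% of all overlapped windows. The CCAAT box (CCAAT, either strand) was found in 34.6% of member windows and 33.9% of all windows. The letters TTCAGCACC, which are the first part of the element bound by the neuronal repressor REST, were found in 1 of the 52 (1.92%) and in 0.301% of all windows. These are matches of letters, and CG content and openness did not go together without exception: the Ptprt window held 39 CG in its 250 bases and had no region.

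The genes' own promoters were open at both stages and 0 of 62 passed the threshold, an adjusted p under 0.05 in edgeR's quasi-likelihood test with Benjamini-Hochberg adjustment over all regions. Over all 14097 promoter regions 0.851% passed. At an unadjusted p under 0.05 there were 6 of the 62, against 1231 of all 14097, and of the 62 limma-voom called 0 and DESeq2's Wald test called 1, lower at P0. The median level of the 62 was 36.3 CPM, against 25.5 CPM for all promoters. Their median log2 fold change (P0 over E14.5) was -0.05, against -0.10 for all promoters, and the range was -0.62 to 0.58. The libraries of the stages did not overlap at 18 of the 62 (12 lower and 6 higher at P0), which is 29.0% against 16.7% of all promoters. Dcc was listed with 3 promoter regions that overlap each other, and 2 of them are among the 12.

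The most open promoter was that of Epha7, an Eph receptor that repels axons, shown above. It had 134, 130 and 140 CPM at E14.5 and 144, 94.7 and 151 CPM at P0, so that 1 P0 library lay below and the other two above every E14.5 library, with a log2 fold change of -0.05 (SE 0.22). Negr1, an IgLON protein of growing neurites, had 103, 112 and 106 CPM at E14.5 and 109, 82.6 and 118 CPM at P0, which overlapped. The start inside Nrxn3, a presynaptic neurexin, had 105, 115 and 105 CPM at E14.5 and 97.9, 102 and 93.0 CPM at P0. There every P0 library lay below every E14.5 library, by a log2 fold change of -0.15 (SE 0.19). Epha5, another Eph receptor, had 109, 104 and 108 CPM at E14.5 and 96.0, 75.1 and 99.5 CPM at P0, also without overlap. Unc5c, a receptor for netrin that mediates repulsion, had 84.6, 75.6 and 89.9 CPM at E14.5 and 103, 44.9 and 105 CPM at P0. P0 replicate 2, the shallowest library, was the lowest of the 3 P0 libraries at Epha7, Negr1, Epha5 and Unc5c but not at Nrxn3. The lowest promoter fold change was at Brinp1, a protein that slows the cell cycle in neural cells, with 67.1, 58.7 and 70.6 CPM at E14.5 and 40.2, 43.1 and 44.5 CPM at P0. Its stages did not overlap, and its log2 fold change of -0.62 (SE 0.19) did not pass the threshold.

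**Figure D1:**
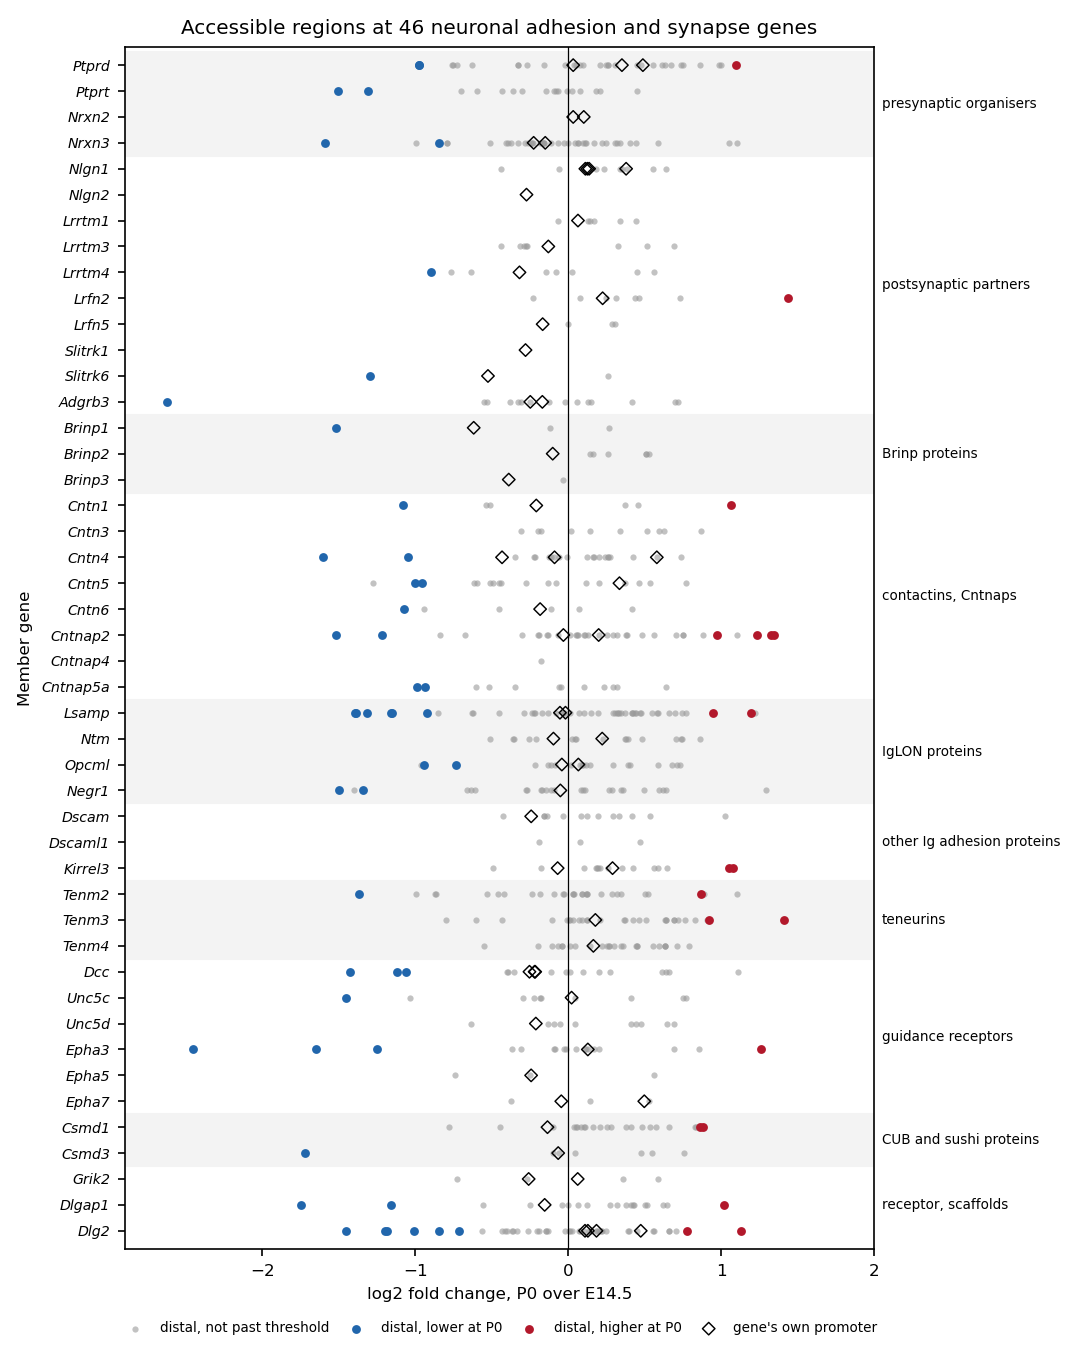
Each point is 1 accessible region at 1 of the 46 genes (rows, grouped by role), placed by its log2 fold change, P0 over E14.5. Blue and red points are distal regions past the threshold, 47 lower and 20 higher at P0. Grey points are the other distal regions. Open diamonds are the genes' own promoters, which lie between -0.62 and 0.58.

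Away from promoters, 67 of the 650 distal regions (10.3%) passed the threshold, 47 lower at P0 (7.23%) and 20 higher (3.08%). Over all 29426 distal regions of the series 6.59% passed, 4.13% lower and 2.46% higher. Since the genes were chosen from this contrast, nothing is read from the gap between these shares. The median log2 fold change over the 650 was 0.10, the same as over all distal regions (0.10), with a range of -2.63 to 1.43. In all 67 the libraries of the stages did not overlap. Without regard to the threshold, stages did not overlap at 99 member regions lower at P0 (15.2%, against 12.6% of all distal regions) and at 115 higher (17.7%, against 15.3%). The called regions changed by a median log2 fold of -1.20 where lower and 1.07 where higher, close to the -1.22 and 1.05 of all called distal regions, and 48 of the 67 changed at least 2-fold. The count moved when single libraries were left out, which also leaves fewer samples. It was 10 (all lower) without E14.5 replicate 3, 17 (1 higher, 16 lower) without P0 replicate 1 and 41 (8 higher, 33 lower) without E14.5 replicate 1. Over all regions of the series these fits gave 339, 474 and 1099, against 2059 with every library. The member count was 54 without P0 replicate 2 and 70 without P0 replicate 3. Without E14.5 replicate 2 it was 94, with 46 higher and 48 lower (14.46%, against 9.49% of all distal regions). Over all distal regions that fit gave 1583 higher and 1210 lower. Among the 20 regions higher at P0, that library was the highest of the 3 E14.5 libraries in 11.

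Calls were spread over 27 of the 43 genes with distal regions. Only lower calls were found at 15 genes, only higher ones at 4 and both at 8, while 16 genes had none. Lsamp (2 higher and 6 lower of 49 regions) and Dlg2 (2 and 6 of 44) had the most, followed by Cntnap2 (4 and 2 of 34). Of the Lsamp losses, that at chr16:42251679-42253312 lay 70816 bases from the gene, inside Gap43. Some genes with many regions had no call: Tenm4 had 0 of 26 and Ntm 0 of 17, where 6.59% of all distal regions passed. The plot of regions by gene shows the called losses reaching further from 0 than the called gains.

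Presynaptic organisers, on the axon side of the synapse, had 90 distal regions, with a median log2 fold change of -0.02. Of these 6 were lower (6.67%) and 1 higher (1.11%) at P0, against 4.13% and 2.46% of all distal regions. The fit without E14.5 replicate 2 gave 7 lower and 5 higher. Nrxn3 had 41 of the 90 regions and 2 calls, both lower. One of them, inside the gene at chr12:90181600-90182311, had 6.52, 6.66 and 11.3 CPM at E14.5 and 2.19, 3.78 and 2.29 CPM at P0. All E14.5 libraries stood above all P0 libraries, and the log2 fold change was -1.59 (SE 0.36). In Ptprd, a receptor phosphatase that organises presynaptic terminals, a region at chr4:76025703-76027118 had 9.96, 18.7 and 8.76 CPM at E14.5 and 28.0, 26.9 and 25.8 CPM at P0. It rose by 1.10 on the log2 scale (SE 0.26), with E14.5 replicate 2 nearest to the P0 libraries. The most open distal region of the group, 82.869 kb beyond Nrxn3 at chr12:90417209-90418400, had 37.1, 56.8 and 37.6 CPM at E14.5 and 34.2, 33.6 and 40.5 CPM at P0, and its stages overlapped.

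Postsynaptic partners, which bind those organisers from the receiving cell, had 59 distal regions, with a median of 0.13. Of these 3 were lower (5.08%) and 1 higher (1.69%), against 4.13% and 2.46% of all distal regions. The region with the lowest fold change at any of the 46 genes lay in an exon of Adgrb3, an adhesion receptor that binds C1q-like proteins, at chr1:25420427-25421217. It had 14.0, 13.1 and 15.6 CPM at E14.5 and 2.50, 1.97 and 2.37 CPM at P0. The stages were far apart and each was tight, and the log2 fold change was -2.63 (SE 0.28). The most open region of the group was also in Adgrb3, at chr1:25106128-25108671, with 31.9, 42.7 and 26.9 CPM at E14.5 and 65.8, 52.2 and 47.1 CPM at P0. It lay the other way, higher in every P0 library, but its log2 fold change of 0.70 (SE 0.22) did not pass the threshold. DESeq2's Wald test and the fit without E14.5 replicate 2 did call it. The largest gain at any of the 46 genes was 98.587 kb from Lrfn2, a leucine-rich repeat protein of excitatory synapses, at chr17:49195331-49197025. It had 8.42, 3.42 and 6.54 CPM at E14.5 and 16.0, 15.7 and 17.3 CPM at P0, a log2 fold change of 1.43 (SE 0.29). Of the other genes of this group, Nlgn1, Lrrtm1, Lrrtm3 and Lrfn5 had no call, and Lrrtm4 and Slitrk6 had 1 lower region each.

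Inside the receiving cell, the glutamate receptor subunit Grik2 and the scaffolds Dlgap1 and Dlg2 had 67 distal regions, with a median of 0.08. Of these 8 were lower (11.9%) and 3 higher (4.48%), against 4.13% and 2.46% of all distal regions. Grik2 had none of the calls. A region in Dlgap1, which links the postsynaptic scaffold to the Shank proteins, lay at chr17:70300108-70301166 and had 14.1, 15.7 and 18.8 CPM at E14.5 and 5.21, 4.54 and 4.66 CPM at P0. Every P0 library lay far below every E14.5 library, with a log2 fold change of -1.75 (SE 0.24). In Dlg2, a scaffold that anchors receptors and channels, the region with the largest gain was at chr7:90953254-90954677, with 11.6, 16.0 and 8.17 CPM at E14.5 and 28.8, 24.7 and 25.4 CPM at P0. It rose by 1.13 (SE 0.24). The most open region of the gene, at chr7:90886426-90888028, had 50.8, 59.4 and 54.5 CPM at E14.5 and 40.5, 40.6 and 41.0 CPM at P0. Its stages did not overlap, but the log2 fold change of -0.43 (SE 0.18) did not pass. Both Dlg2 regions lie inside the RefSeq gene although the deposited annotation lists them as intergenic.

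Contactins and Cntnap proteins, which pair up to attach axons to each other and to glia, had 108 distal regions, with a median of 0.06. Of these 10 were lower (9.26%) and 5 higher (4.63%), against 4.13% and 2.46% of all distal regions. The fit without E14.5 replicate 2 gave 9 lower and 11 higher. The lowest fold change of the group lay in Cntn4, a contactin of olfactory axons, at chr6:106425164-106427463. It had 25.9, 36.5 and 41.3 CPM at E14.5 and 9.16, 13.5 and 11.7 CPM at P0, a log2 fold change of -1.60 (SE 0.23) with wide space between the stages. Cntnap2, which clusters potassium channels along axons, held 4 of the 5 gains. The largest, at chr6:46079859-46080929, had 7.0, 4.03 and 3.62 CPM at E14.5 and 13.1, 14.4 and 9.79 CPM at P0, a log2 fold change of 1.35 (SE 0.30). The most open distal region at all 46 genes, in Cntn3 at chr6:102563034-102564766, had 87.4, 82.9 and 70.9 CPM at E14.5 and 96.9, 71.4 and 97.9 CPM at P0, which overlapped. Its midpoint lies 400.6 kb along the 401.31 kb gene, at the 5′ end of this minus-strand gene, although the annotation lists no promoter there. Cntn1 had 1 region called in each direction, Cntn5 and Cntnap5a had 2 lower each, Cntn6 had 1 lower, and Cntn3 and Cntnap4 had none.

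IgLON proteins, small lipid-anchored adhesion molecules, had 111 distal regions, with a median of 0.09. Of these 10 were lower (9.01%) and 2 higher (1.80%), against 4.13% and 2.46% of all distal regions. The fit without E14.5 replicate 2 gave 11 lower and 8 higher. In Negr1 a region at chr3:157284296-157285429 had 9.96, 7.36 and 11.9 CPM at E14.5 and 3.75, 5.15 and 1.74 CPM at P0. It fell by 1.50 on the log2 scale (SE 0.37), and P0 replicate 3 was the lowest. Lsamp, a marker of limbic neurons, gave the largest called gain of the group at chr16:41812622-41813852, with 6.76, 10.2 and 6.89 CPM at E14.5 and 18.8, 19.1 and 17.2 CPM at P0 (log2 fold change 1.19, SE 0.23). Larger rises of 1.29 at Negr1 and 1.22 at Lsamp did not pass the threshold. The most open region, 8.643 kb from Lsamp at chr16:42189543-42191102, had 50.8, 53.1 and 62.1 CPM at E14.5 and 52.8, 39.6 and 58.8 CPM at P0, with overlap. Opcml had 2 lower regions and Ntm none. Among other immunoglobulin proteins, Kirrel3, a relative of the nephrin partner Kirrel, had 2 higher regions of 15, while Dscam and Dscaml1 had none. The larger of the Kirrel3 gains, at chr9:34614617-34616253, had 7.59, 12.1 and 10.3 CPM at E14.5 and 20.2, 26.0 and 17.7 CPM at P0, a log2 fold change of 1.08 (SE 0.24). The most open region of that group, also in Kirrel3, at chr9:34721141-34722996, had 20.4, 24.5 and 22.0 CPM at E14.5 and 22.6, 27.4 and 30.0 CPM at P0, and its stages overlapped.

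Teneurins, large proteins that bind latrophilins across the synapse, had 84 distal regions, with a median of 0.21. Of these 1 was lower (1.19%) and 3 were higher (3.57%), against 4.13% and 2.46% of all distal regions. Leaving out E14.5 replicate 2 gave 1 lower and 10 higher. At Tenm3 the stages did not overlap at 13 of 29 regions, each time with P0 higher (15.3% of all distal regions were so). Of these 2 passed the threshold (2.46% of all distal regions passed as higher), the smaller gain 98.293 kb away inside Dctd. The larger, at chr8:48513614-48514472, had 2.85, 3.33 and 2.45 CPM at E14.5 and 8.23, 5.75 and 8.92 CPM at P0, a log2 fold change of 1.41 (SE 0.32). Tenm2 had a loss at chr11:36419530-36420933, with 9.85, 9.55 and 9.81 CPM at E14.5 and 2.19, 6.20 and 3.24 CPM at P0 (log2 fold change -1.37, SE 0.35). There the E14.5 libraries were almost level and the P0 libraries spread. The most open region of the group, 18.226 kb from Tenm4 at chr7:96152185-96153852, had 38.9, 30.9 and 29.7 CPM at E14.5 and 38.2, 29.8 and 32.1 CPM at P0, hardly different.

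Guidance receptors had 60 distal regions, with a median of 0.00 to 2 decimals. Of these 7 were lower (11.7%) and 1 higher (1.67%), against 4.13% and 2.46% of all distal regions. Leaving out E14.5 replicate 2 gave 8 lower and 3 higher. Epha3, an Eph receptor for ephrin-A ligands, held 3 of the losses and the gain, and Dcc, the netrin receptor, held 3 losses of 16 regions. The Epha3 region with the lowest fold change, 25.693 kb from the gene at chr16:63517330-63518349, had 8.66, 13.1 and 12.4 CPM at E14.5 and 1.15, 3.33 and 1.97 CPM at P0. It fell by 2.45 on the log2 scale (SE 0.37). Another, 86.762 kb from the gene at chr16:63456370-63457171, had 9.02, 8.76 and 5.61 CPM at E14.5 and 17.5, 21.3 and 17.5 CPM at P0, a gain of 1.26 (SE 0.24). The most open Epha3 region, at chr16:63856400-63857954, had 40.7, 46.0 and 41.8 CPM at E14.5 and 56.6, 41.5 and 49.0 CPM at P0, and its stages overlapped. Unc5c had 1 lower region, and Unc5d, Epha5 and Epha7 had no call.

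The remaining roles had few regions. Csmd1 and Csmd3, membrane proteins built of CUB and sushi domains, had 30, with a median of 0.23. Of these 1 was lower (3.33%) and 2 were higher (6.67%), against 4.13% and 2.46% of all distal regions. The Csmd3 region at chr15:48529287-48530501 had 11.5, 13.8 and 13.7 CPM at E14.5 and 3.75, 3.93 and 4.10 CPM at P0, a log2 fold change of -1.72 (SE 0.26). Both gains were at Csmd1. One lay 49.252 kb away at chr8:15842743-15843830, with 9.49, 7.62 and 7.12 CPM at E14.5 and 15.4, 16.9 and 12.5 CPM at P0 (log2 fold change 0.88, SE 0.24). The other, at chr8:17264795-17266921, was the most open region of this role, with 20.4, 32.5 and 17.9 CPM at E14.5 and 47.7, 41.6 and 39.8 CPM at P0 (0.86, SE 0.23). E14.5 replicate 2 stood nearest to the P0 libraries there, as at Ptprd. The Brinp genes had 10 regions and 1 call, a loss 40.182 kb from Brinp1 at chr4:68720614-68721767, with 13.9, 15.4 and 13.2 CPM at E14.5 and 5.31, 4.54 and 4.89 CPM at P0 (-1.52, SE 0.24). The most open Brinp region, 51.297 kb from Brinp2 at chr1:158192693-158195244, had 57.4, 96.7 and 47.3 CPM at E14.5 and 105, 85.4 and 95.7 CPM at P0, and overlapped through E14.5 replicate 2.

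**Figure D2:**
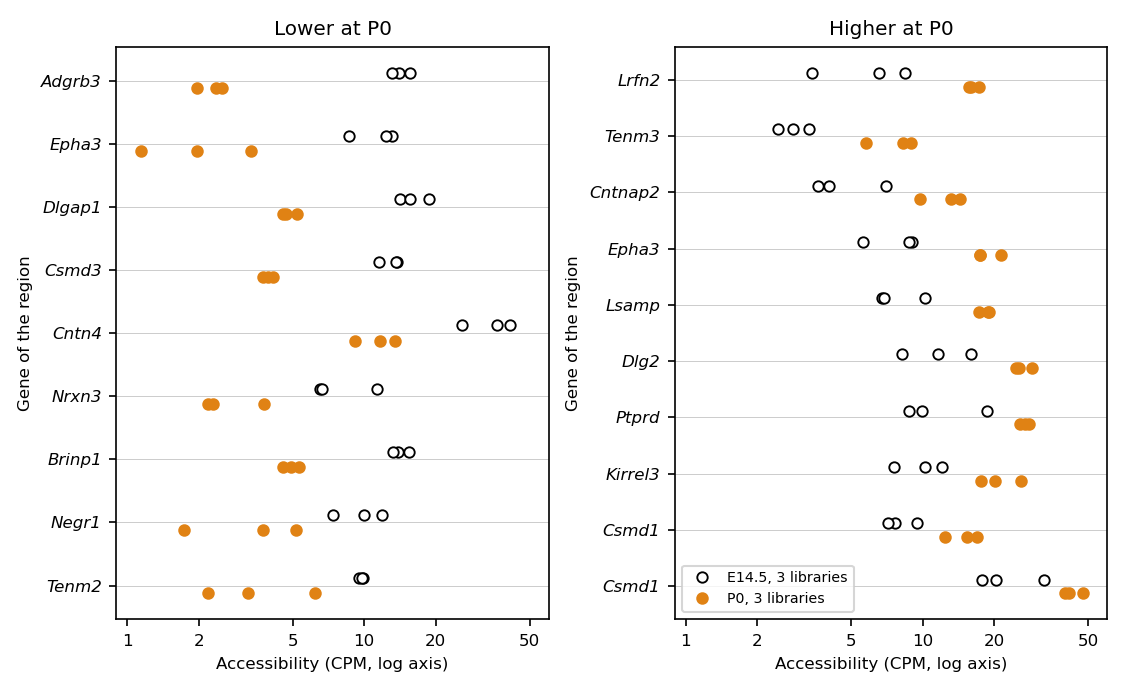
Accessibility in CPM (log axis) of the 19 called regions described by role, with open circles for the 3 E14.5 libraries and filled circles for the 3 P0 libraries. In each row, named by its gene, all P0 libraries lie on 1 side of all E14.5 libraries.

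Of these 19 called regions, 6 stayed past the threshold in all 13 alternative fits: those in Adgrb3, Cntn4, Csmd3 and Dlgap1, the one near Brinp1 and the loss near Epha3. All 6 were losses. The other 13 lost their call without E14.5 replicate 3, and 12 of the 19 lost it without P0 replicate 1. In none did the direction reverse, which was hardly possible, since they were chosen among regions whose stages did not overlap.

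Gains and losses could lie close together. At each of the 8 genes with both, the nearest opposite pair was measured between midpoints. In Dlgap1 the loss described above stood 12.86 kb from a gain at chr17:70286989-70288566, with 0 other regions between them. That gain had 11.2, 16.3 and 8.87 CPM at E14.5 and 23.8, 29.5 and 21.0 CPM at P0 (log2 fold change 1.02, SE 0.24). The pair overlapped at E14.5 and stood far apart at P0. In Lsamp the gain described above was 26.951 kb from a loss at chr16:41839451-41840925, which had 17.3, 21.3 and 29.4 CPM at E14.5 and 7.18, 9.99 and 13.2 CPM at P0. The pair at Epha3 was 61.069 kb apart, at Tenm2 86.296 kb, at Cntnap2 122.13 kb, at Cntn1 165.03 kb, at Dlg2 467.84 kb and at Ptprd 875.38 kb. Along Dlg2 all 6 losses lay at higher coordinates than both gains, as the plot of regions along the genes shows.

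**Figure D3:**
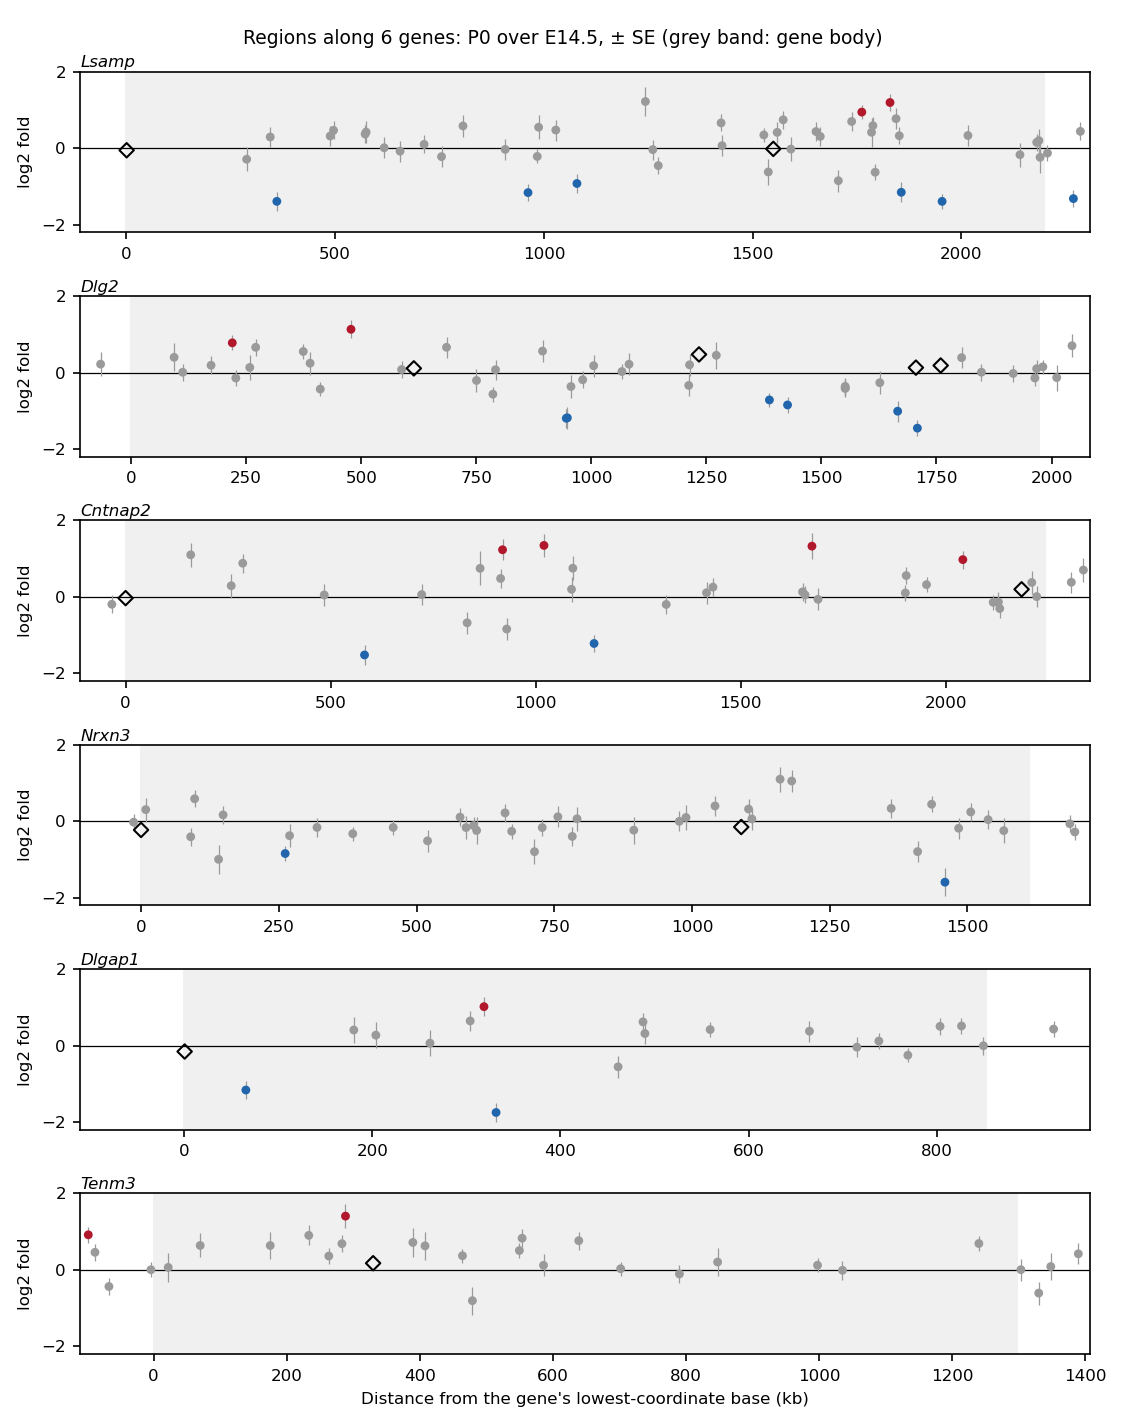
Distal regions along 6 of the genes, by distance in kb from the gene's lowest-coordinate base. The y axis is the log2 fold change, P0 over E14.5, with bars of ± SE. Blue and red mark regions lower and higher at P0 past the threshold, grey the others, diamonds the gene's own promoters, and the grey band the gene body. In Dlgap1 a loss and a gain stand 12.86 kb apart.

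Summing all distal counts of a gene gave 1 value per gene and library. Of the 43 member loci 0 passed the threshold in edgeR's quasi-likelihood test over 16611 gene loci, of which 0.144% passed. At an unadjusted p under 0.05 there were 8 of the 43, against 2558 of all loci (15.4%), and DESeq2 and limma-voom also called 0. The median log2 fold change was 0.06 for the member loci and 0.05 for all loci, and 32 of the 43 lay within 0.25 of 0. Stages did not overlap at 10 of the 43 loci, against 21.5% of all loci. P0 was lower at Lrrtm4, Cntn6 and Slitrk6 and higher at the rest of the 10, among them Tenm4 and Ntm. The lowest fold change was at Slitrk6, with 18.4, 16.8 and 20.9 CPM at E14.5 and 14.3, 11.7 and 12.4 CPM at P0 (-0.55, SE 0.19), although its sum came from only 2 regions. The highest was Brinp2, with 148, 224 and 125 CPM at E14.5 and 249, 220 and 217 CPM at P0 (0.46, SE 0.19), where E14.5 replicate 2 overlapped the P0 libraries. The deposited regions can overlap, and 2 of the 6 Brinp2 regions lie at the same site with means of 81.3 and 79.5 CPM, so most of that sum is 1 site entered in both. Of the 650 distal regions 13 overlap another of them, and none of the 67 called regions is among these. Lrfn2 had 65.6, 67.9 and 56.5 CPM at E14.5 and 86.7, 96.9 and 77.6 CPM at P0 (0.46, SE 0.13), without overlap. At Lsamp, with 8 called regions, and Adgrb3, with the lowest single fold change, the sum moved by 0.01 and 0.00 on the log2 scale (SE 0.15 and 0.14).

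**Figure D4:**
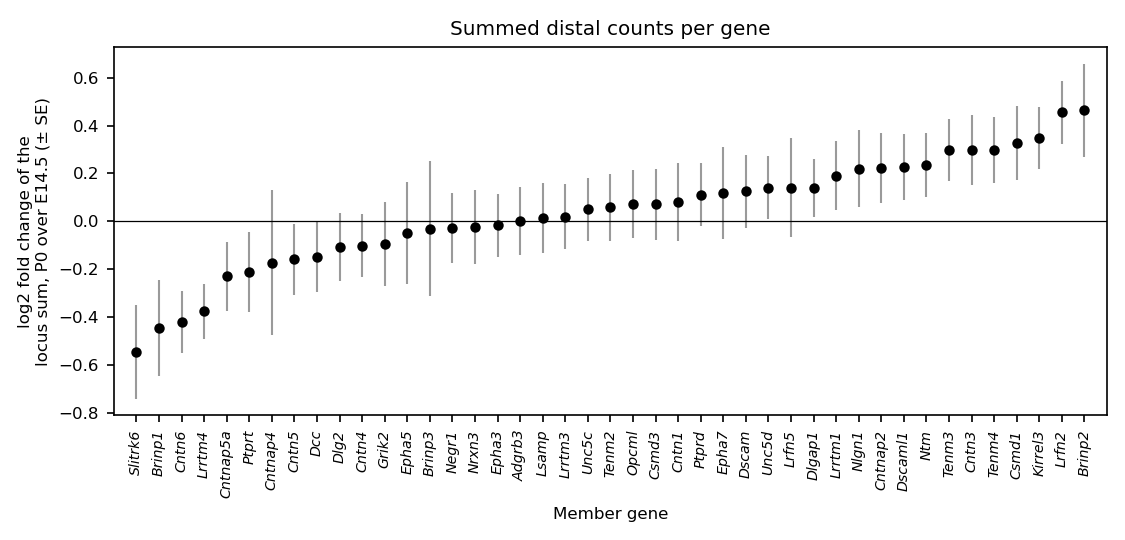
Log2 fold change, P0 over E14.5, of the summed distal counts of each of the 43 genes with a distal region, with bars of ± SE. The genes run from Slitrk6 at -0.55 to Brinp2 at 0.46, and 32 lie within 0.25 of 0.

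The same counts were made for other gene sets. A list of 78 related adhesion, guidance and synapse genes, such as Epha4 and Grin2b, had 397 distal regions, with 14 lower (3.53%) and 8 higher and a median of 0.05. A set of 104 other protein-coding genes at least as long as the median member gene had 1451, with 91 lower (6.27%) and 47 higher, or 9.51% in all, and a median of 0.10. Without E14.5 replicate 2 the related genes had 15 lower and 13 higher, and the other long genes 89 lower and 98 higher. The 46 genes then had 48 lower and 46 higher. The differences between sets were not tested, and the choice of the 46 genes from this contrast bears on their own share. By location, 10.7% of the 506 member regions in genes but outside exons passed, against 6.02% of other such regions. In exons it was 5.41% of 37 against 5.10%, and among regions that the annotation lists as intergenic, some of which lie inside RefSeq Dlg2, 10.3% of 107 against 6.98%.

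**Figure D5:**
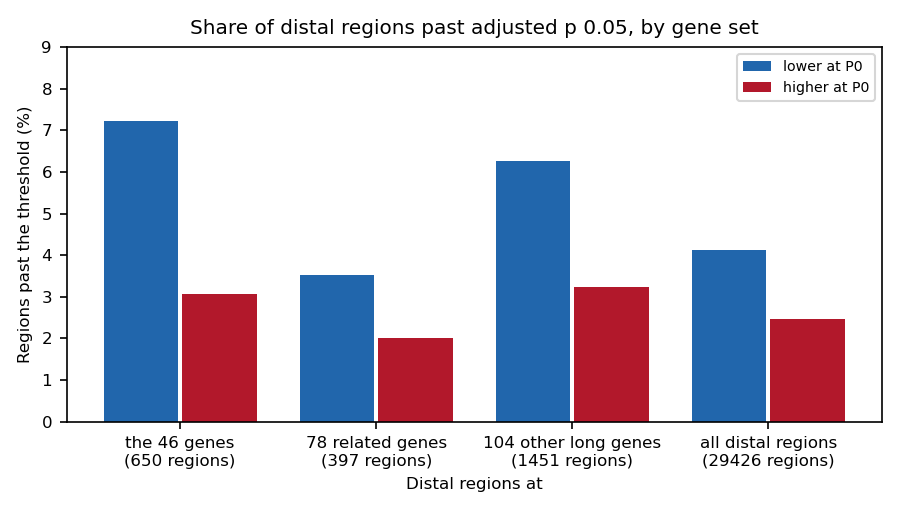
Share of distal regions past the threshold (percent, bars from 0), lower (blue) and higher (red) at P0, at the 46 genes, 78 related genes, 104 other long genes and all distal regions. Losses made up 7.23% at the 46 genes, 3.53%, 6.27% and 4.13% in the other sets.

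What the regions shared beyond position was limited. Member distal regions were of ordinary size (median 1476 bp, against 1477 bp for all) and openness (11.7 against 11.6 CPM). Forkhead motifs, as listed in the deposited annotation, were found in 24.0% of them and in 23.7% of all distal regions. Among the 47 losses 15 carried one (31.9%, against 39.6% of all distal losses), among them the Adgrb3 exon region, the Epha3 loss and the Brinp1 region. Among the 20 gains 2 carried one (10.0%, against 19.3% of all distal gains). Smad motifs were listed in 5 of the 20 gains, among them those at Ptprd and Epha3, and in 1 of the 47 losses, against 7.08% of all 650, 8.29% of all distal gains and 5.10% of all distal losses. Only 13 of the 650 (2.0%) overlapped a FANTOM enhancer, against 8.64% of all distal regions.

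The 50 other promoter regions within the windows gave 3 calls, or 6.0%, against 0.851% of all promoter regions. Gm15578 and Gm15577, which start inside Negr1, fell by 0.91 and 1.28 on the log2 scale, and an unnamed start within Csmd1, ENSMUSG00000093142, rose by 0.90. Gm15577 had 9.96, 9.46 and 11.2 CPM at E14.5 and 4.27, 4.54 and 3.87 CPM at P0, without overlap.

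Of the 5 lowest log2 fold changes among all called regions whose stages did not overlap, only the Adgrb3 exon region lay within the windows. A region 244.7 kb from Ptprd, at chr4:78455885-78457006, had a log2 fold change of -2.98, and one 505.87 kb from Brinp1 had -2.53. The other two (-2.59 and -2.55) were 2477.6 kb from Lrfn5 and 37240 kb from Lrrtm3, the nearest of the 46 genes. Just inside the limit lay regions 98.293 kb from Tenm3 (0.92, inside Dctd), 98.587 kb from Lrfn2 (1.43) and 99.022 kb from Dscam (0.29, inside Pcp4). Just outside it lay regions 101.25 kb from Dscam (-0.30), 105.41 kb from Nlgn1 (0.96) and 107.78 kb from Brinp2 (-0.25). In the authors' deposited table, 26 of the 650 distal regions had an adjusted p under 0.05, and 25 of these were called here. The authors' deposited table classed 35 as opening and 37 as closing, including all 20 gains and 36 of the 47 losses.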

How the data were processed

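Nephron progenitors were isolated on Itga8 beads and transposed with Tn5, per the labels' protocols. Per the file headers, the authors deposited raw counts per region and library, and the 6 columns were matched to the samples by title. The same table held the authors' own log2 fold change and adjusted p-value, used only where it is named. The submitters' processing notes name the mm10 build. The aligner, peak caller, counting rule and any shift for the Tn5 insertion site are not given in the sources used here. Of 45489 rows, 43523 were distinct regions and entered once.

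Regions were tested with edgeR 4.0.16 (R 4.3.3): TMM scaling, the filterByExpr filter (0 regions removed), the quasi-likelihood test with stage as the only term, and Benjamini-Hochberg adjustment over all regions with a threshold of 0.05. CPM used TMM-scaled library sizes, SE is the size of the log2 fold change over the square root of F, and a gene locus was the sum of its distal counts. The lowest count of a member distal region in any library was 11, and counting error is largest there. The fit was also run on simulated counts with 200 of 43523 regions changed, from which no result here is drawn. Gene bodies came from RefSeq GRCm38.p6, and 46 of 46 members matched; a region within reach of several went to the gene holding it, or else to the nearest. The table pairs identifiers with names, which gave 54 own promoters, and 8 more overlapped a RefSeq start. Named regions were, per role, the lowest and highest fold change among called regions whose stages did not overlap. The most open distal region per role and the 5 most open promoters were added. Other named regions were chosen after their values were seen. The members and lists were chosen with earlier results of these data known. Alternatives were DESeq2 1.42.0, limma-voom (limma 3.58.1), other scalings, filters, thresholds and windows, a replicate block and leaving out each library. Figures used matplotlib 3.10.9 under Python 3.11.15.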

Additional observations from a re-analysis of the deposited data

How the results depend on the processing

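Of 247 alternative fits of the 19 called regions described by role, 202 kept the call. No direction reversed, but these regions were chosen with stages that did not overlap, so a reversal was hardly possible. The count of called distal regions (67) was 20 (1 higher, 19 lower) at an adjusted p under 0.01 and 109 (51 higher, 58 lower) under 0.1, and ran from 10 to 94 when each library was left out. The same settings gave 539, 3490 and 339 to 2987 for all regions (2059), and 0, 1 and 0 to 1 for own promoters (0), the 1 being without P0 replicate 2, and DESeq2's Wald test gave 1. Member loci stayed at 0. DESeq2's Wald test called 87 distal regions, limma-voom 64 and total-count scaling 64, while windows of 0, 10, 50 and 200 kb gave 56, 56, 60 and 76. The median log2 fold change ran from 0.01 (without P0 replicate 2) to 0.15 when each library was left out, and was 0.15 with total-count scaling. Leaving out a library also leaves fewer samples, and other causes of the moved counts were not tested.

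Replicate numbers did not pair the libraries: deviations of same-numbered libraries correlated at 0.07, -0.14 and 0.08. With the replicate block 66 distal regions were called (21 higher, 45 lower), 1834 of all regions, 0 own promoters and 0 loci, with a median of 0.10, and 3 of the 19 described regions were not called: the loss in Negr1, the gain in Tenm3 and the gain 49.252 kb from Csmd1. Depth limited the weakest regions most, with as few as 11 counts in a library.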

Other observations

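Beyond the 100 kb windows, distal regions nearest to one of the 46 genes were counted as well, to be read against the 6.59% of all distal regions that passed (4.13% lower, 2.46% higher). At 100 to 200 kb there were 86, of which 7 were lower and 2 higher at P0 (10.5%). At 200 to 500 kb there were 342, with 19 lower and 7 higher (7.60%), and at 500 to 1000 kb 494, with 41 lower and 11 higher (10.5%). Within 10 kb outside the gene bodies 0 of 17 regions passed in edgeR's quasi-likelihood test, 1 at an unadjusted p under 0.05, and 2 of 17 passed without E14.5 replicate 2. At 10 to 50 kb 4 of 35 passed (11.4%), and at 50 to 100 kb 7 of 56 (12.5%). Without that library these were 2 of 35 and 8 of 56. The same fit gave 5 lower and 7 higher at 100 to 200 kb, and 19 lower and 18 higher at 200 to 500 kb. At 500 to 1000 kb it gave 42 lower and 24 higher, and 9.49% of all distal regions passed in it.

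The deposited annotation also lists predicted target genes of enhancers. Of 18697 regions with a predicted gene found in RefSeq, 134 (0.717%) had one on their own chromosome, whereas the annotation's gene column lay on the region's own chromosome in 99.98% of cases. The predictions were not used for this reason.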
